A study of Mus musculus with 64 samples.

Results

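A set of 10 genes that carry or tune the growth hormone signal in liver were followed across sex and genotype in arsenic-exposed mice. They are the receptor gene Ghr, the signal transducers Stat5a and Stat5b and the feedback genes Cish and Socs2. The others are the transcription factor genes Bcl6, Cux2 and Onecut1, the hormone gene Igf1, and Igfals, which encodes the acid labile subunit. The 10 genes were taken by name from the liver mRNA table, with the adipose mRNA table for contrast, and make up 10 of 48440 gene rows. All 10 passed the filter on low values in liver (a mean of at least 10 over the libraries) and 9 did in adipose tissue, where Onecut1 did not. All animals were 129S6/SvEvTac mice that drank water with 400 ppb of inorganic arsenic for 4 weeks, so the comparisons are among exposed animals and hold no unexposed group. Wild type (WT) males and females carried the mouse arsenic methyltransferase gene As3mt, and humanized males and females expressed its human counterpart AS3MT. Liver had 3 libraries in each of the 4 groups, and gonadal adipose tissue had 3 per group except WT males with 2. The labels give no ages, do not say whether a library is 1 animal or a pool, and do not name the promoter that drives the human gene. Where libraries do not stand for separate animals, p-values measure only the spread between libraries.

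Growth hormone binds its receptor on hepatocytes and activates the kinase JAK2, which phosphorylates STAT5. Rodent males release the hormone in pulses and females more continuously, and this pattern sets much of the sex difference in liver gene expression. CIS and SOCS2 feed back on the receptor, BCL6 is a repressor that binds many STAT5 sites and is more active in male liver, CUX2 is a repressor known as a female-specific liver factor, ONECUT1 (HNF6) is a hepatocyte factor whose level growth hormone raises, and IGF-I with the acid labile subunit carries the growth signal into the blood.

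The values are counts that the authors normalized with DESeq, called normalized counts here, and they summed to between 77307210 and 95381805 per liver library. Of the liver libraries, 6 were made after ribosomal depletion and 6 after polyA enrichment. The preparations were spread unevenly, with 4 of the 6 WT libraries made by polyA enrichment and 4 of the 6 humanized ones by ribosomal depletion. In every library the levels of As3mt, Xist and Ddx3y lay on the side of the labelled genotype and sex. Borcs7, which the labels do not name, also differed between the genotypes. It was at most 15.1 in humanized and at least 620 in WT livers, and at most 20.5 and at least 994 in adipose tissue. One adipose library stood apart, WT female 5, with the Y-linked gene Ddx3y at 220 against at most 2.18 in the other adipose females and at least 7397 in adipose males. Hepatocyte markers were strong in liver, where all 5 listed genes passed the filter, and all 5 adipocyte markers passed it in adipose tissue. Among 15180 genes tested in liver, markers of other cells also moved with sex over both genotypes. Called lower in males were 4 of 5 endothelial, 3 of 5 macrophage and 2 of 6 lymphocyte markers, against 5.47% of all genes. Called higher were 1 of 5 cholangiocyte, 1 of 3 erythroid and 1 of 4 mesothelial markers, against 4.12%. Endothelial markers summed to between 6121 and 9426 in males and 8787 and 15986 in females. Their part in the results below was not tested, and in bulk tissue fewer cells of a type and less RNA per cell cannot be told apart.

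Promoter windows from RefSeq (GRCm38.p6, 250 bases before to 50 after an annotated start) were available for 9 of the 10 genes, Socs2 being the exception, with 16 windows in all. They are shown because STAT5 and BCL6 read closely related letters. Each window was searched on both strands for TTCNNNGAA, a STAT5-type motif, and for TTCCTNGAA, a narrower form contained in it that BCL6 motifs also match. ATCGAT and ATCAAT, letters found in CUX and ONECUT motifs, were searched as well. In the stretches below the matched letters are in capitals, and every sequence reads 5′ to 3′ on the gene's strand.
Cish, chr9:107296654-107296683, plus strand: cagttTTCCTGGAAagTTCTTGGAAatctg
Bcl6, downstream start, chr16:23981432-23981461, minus strand: aggccgcggcTTCCTGGAAagttacttctc
Bcl6, downstream start, chr16:23981386-23981415, minus strand: ggcaggagtgTTCTGTGAAatccttagagc
Bcl6, downstream start, chr16:23981352-23981381, minus strand: atcgactacgTTCCGGGAAtgagagggctg
Bcl6, upstream start, chr16:23988951-23988980, minus strand: agcaaattagTTCTCAGAAttccagaggcc
Igfals, chr17:24878163-24878192, plus strand: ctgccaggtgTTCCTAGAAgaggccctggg
Cux2, chr5:122047880-122047909, minus strand: gggctcatctgaATCGATataaagaggagg
TTCNNNGAA lay in 5 of the 16 windows, those of Cish, Bcl6 and Igfals, and in 8.29% of all 32817 windows. The Cish match TTCCTGGAA began at the annotated start, with a second match, TTCTTGGAA, from base 12 after it. TTCCTNGAA lay in windows of the same 3 genes and in 1.59% of all windows. ATCGAT lay in 1 Cux2 window, from base -72, and in 0.926% of all windows, while ATCAAT lay in none of the 16 and in 7.54% of all. These are matches of letters in a window, not measured sites, and the coordinates belong to GRCm38.p6 and not to the mm9 build named in the submitters' processing notes.

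Between the sexes, 1 of the 10 genes was called in liver, against a background of 9.59% of all genes tested over both genotypes, 4.62% in WT and 1.64% in humanized mice. That gene was Cux2, the female-specific repressor. Cux2 (ENSMUSG00000042589) stood at 10839, 7612 and 11667 normalized counts in WT females and at 9418, 12655 and 13403 in humanized females. WT males had 19.8, 19.4 and 77.2, and humanized males had 1367, 295 and 32.6. No male library reached any female library, a gap that 2.73% of all genes tested showed in this direction over both genotypes, 13.2% within WT and 11% within humanized mice, and the highest male was the first humanized one. Cux2 was lower in males over both genotypes, with a difference of -6.94 on the log2 scale (SE 0.706, limma adjusted p = 0.000218), a 123-fold difference. Within WT mice it fell by 8.26 (limma adjusted p = 0.00133, 307-fold). Within humanized mice it fell by 5.61 (limma adjusted p = 0.0202, 49.0-fold), a call that was lost without humanized male 2 (limma adjusted p = 0.0944), without humanized female 2 (0.118) and without humanized female 3 (0.0787), with differences of -5.63, -5.17 and -5.66. It was also lost within each preparation, with -4.14 among the libraries made by ribosomal depletion and -8.56 among those made by polyA enrichment. The value of -8.56 set humanized male 3 against humanized female 2 alone. Over both genotypes the fall was -6.58 among the libraries made by ribosomal depletion and -8.22 among those made by polyA enrichment, and it was called in both.

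**Figure D1:**
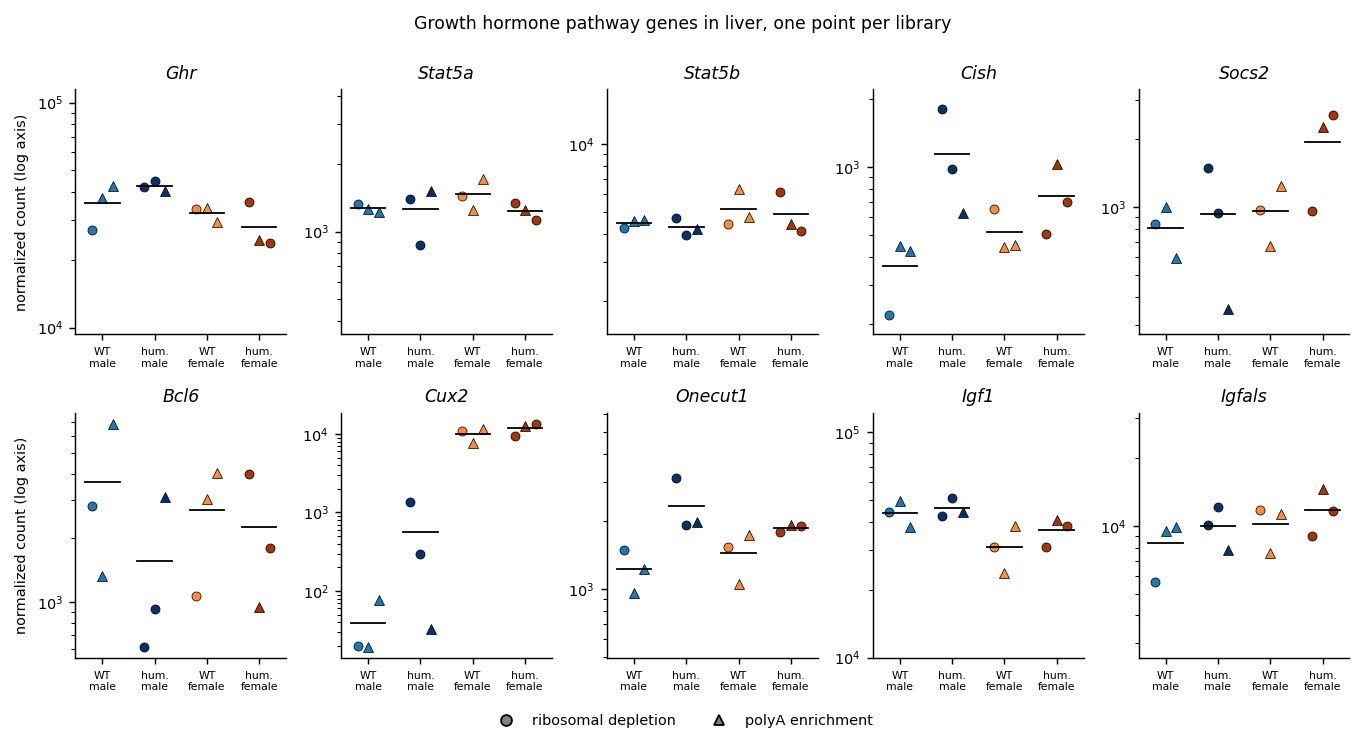
Normalized counts (log axis) of the 10 genes in each of the 12 liver libraries by group; circles are libraries made by ribosomal depletion, triangles polyA enrichment, and bars group means (n = 3). Cux2 separates the sexes, with males between 19.4 and 1367 and females between 7612 and 13403.

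The genes whose liver pattern was most like that of Cux2 over the 12 libraries were the organic anion transporter gene Slc22a26 (Pearson r 0.99 on the log2 scale), Trim24 (0.98), a transcriptional cofactor gene, and the cytochrome P450 gene Cyp3a44 (0.98). All 3 are on the list of female-biased liver genes, and the likeness rests on the gap between the sexes that they share. Slc22a26 averaged 24.6 ± 13.5 among WT males, against 782 ± 1130 in humanized males (mean ± SD, n = 3). In females it was 7420 ± 1568 in WT and 12355 ± 4409 in humanized mice.

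Ghr, which encodes the growth hormone receptor, was higher in male than in female livers without passing the test. Ghr (ENSMUSG00000055737) stood at 27210, 37712 and 42756 in WT males and at 41961, 44986 and 40620 in humanized males. WT females had 33647, 33923 and 29354, and humanized females had 36167, 24431 and 23765. Among humanized mice every male library lay above every female library, while the lowest of the WT males lay below every WT female. Such a male-higher gap without overlap in humanized mice was seen for 3 of the 10 genes, Ghr, Igf1 and Onecut1, and for 12.8% of all genes tested. The male minus female difference for Ghr was 0.38 over both genotypes (95% interval 0.05 to 0.70, limma adjusted p = 0.132), and it was called once WT male 1 was left out (0.49, limma adjusted p = 0.0403). It was 0.13 among the libraries made by ribosomal depletion (limma adjusted p = 0.771) and 0.54 among those made by polyA enrichment (limma adjusted p = 0.229). Within humanized mice it was 0.62 (limma adjusted p = 0.169), and within WT mice it was -0.31 with ribosomal depletion and 0.35 with polyA enrichment. The value of -0.31 set WT male 1 against WT female 1 alone.

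Stat5a and Stat5b encode the transducers that carry the receptor's signal to the nucleus. Their transcripts are near-identical over long stretches, so the division of reads between them is uncertain. Stat5a (ENSMUSG00000004043) ran from 870 in a humanized male to 1720 in a WT female. Stat5b (ENSMUSG00000020919) ran from 3947 in a humanized male to 6323 in a WT female. For both genes all 4 groups overlapped. The sex difference over both genotypes was -0.11 for Stat5a (95% interval -0.43 to 0.22) and -0.18 for Stat5b (95% interval -0.47 to 0.10). The genotype difference in males was -0.01 for Stat5a (95% interval -0.48 to 0.46) and -0.04 for Stat5b (95% interval -0.45 to 0.37). The genotype intervals in males leave room for changes of up to about 0.5 on the log2 scale in either direction. The sex intervals leave room for levels lower in males by up to about 0.5, and higher by up to 0.22 for Stat5a and 0.10 for Stat5b.

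Igf1 (ENSMUSG00000020053), the gene for the main hormone induced by growth hormone in liver, was also higher in males without passing the test. WT males had 44223, 49826 and 38100, and humanized males had 42612, 51367 and 44197. WT females had 31016, 23690 and 38238, and humanized females had 30947, 40984 and 38254. Every humanized male lay above every humanized female, and in WT mice only the highest female passed the lowest male. The difference was 0.43 over both genotypes (95% interval 0.12 to 0.74, limma adjusted p = 0.0818) and 0.53 in WT mice (limma adjusted p = 0.162).

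Igfals (ENSMUSG00000046070), which encodes the acid labile subunit that keeps IGF-I in the circulation, ran from 5633 in a WT male to 14564 in a humanized female. The groups overlapped, with a male minus female difference of -0.27 (95% interval -0.70 to 0.17, limma adjusted p = 0.439), or -0.47 and -0.42 among the libraries made by ribosomal depletion and by polyA enrichment. Within the genotypes the preparations were not alike. With ribosomal depletion it was -1.06 in WT and 0.11 in humanized mice, and with polyA enrichment 0.07 and -0.91. The genotype difference in males was 0.97 with ribosomal depletion and -0.32 with polyA enrichment. The male minus female genotype difference turned from 1.18 to -0.98.

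Socs2 (ENSMUSG00000020027), a feedback inhibitor of the receptor, was highest in 2 humanized female livers. Humanized females had 960, 2278 and 2576 normalized counts, and WT females had 967, 671 and 1247. WT males had 841, 997 and 593, and humanized males had 1496, 944 and 353. Humanized male 3 was the lowest library and humanized females 2 and 3 the highest, and the groups overlapped. The difference between the sexes was -1.17 in humanized mice (95% interval -2.29 to -0.05, limma adjusted p = 0.281) and -0.70 over both genotypes (limma adjusted p = 0.248). Among the libraries made by ribosomal depletion these were -0.40 and -0.30, and among those made by polyA enrichment -2.69 and -1.47. The value of -2.69 set humanized male 3 against humanized female 2 alone. The genotype difference in females was 0.81 (95% interval -0.34 to 1.97, limma adjusted p = 0.795). The pattern most like that of Socs2 was that of Kyat3 (Pearson r 0.95 over 12 libraries), followed by Btd (0.91) and Irs2 (0.90), which encodes an insulin receptor substrate.

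**Figure D2:**
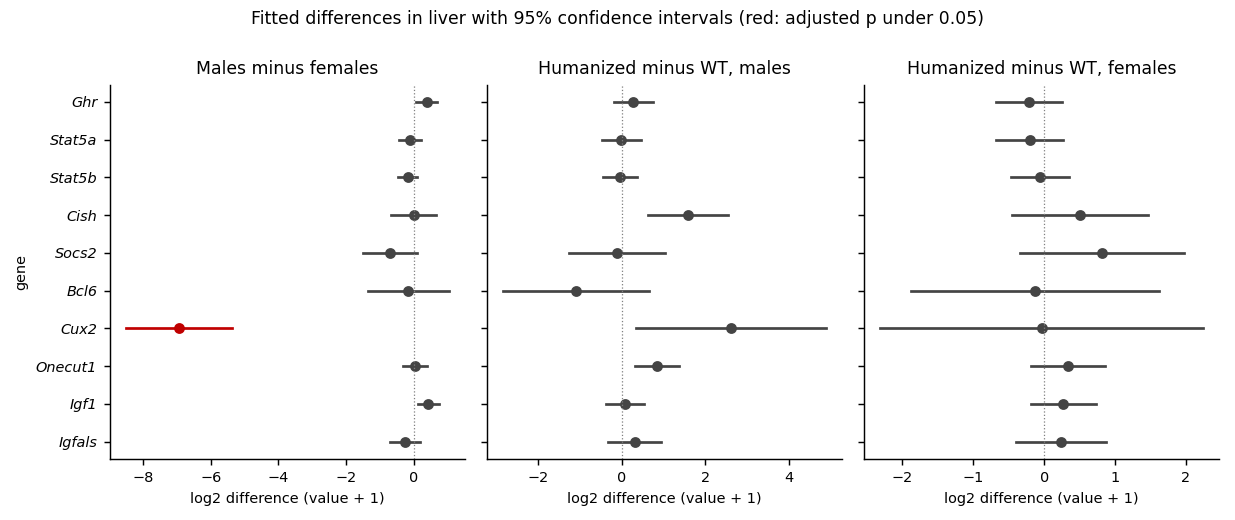
Fitted log2 differences in liver for males minus females over both genotypes, and for humanized minus WT in males and in females, with 95% confidence intervals; red marks an adjusted p under 0.05. Cux2 is the only gene in red, for sex, at -6.94.

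Between the genotypes, none of the 10 genes was called in male livers, in female livers or with the sexes joined. The background was 0.0329%, 0.0198% and 0.0329% of genes called. At an unadjusted p under 0.05 limma gave 3 of the 10 in males, Cish, Onecut1 and Cux2, against 7.13% of all genes. It gave 0 of the 10 in females, against 5.66%, and 2 over both sexes, Cish and Onecut1, against 5.07%. A genotype difference that itself differed between the sexes was called for 0 of the 10 (0 at an unadjusted limma p under 0.05, against 8.18% of all genes, of which 0.00659% were called). In simulated data of this design, 39% of genes shifted by 1 on the log2 scale and 74% of those shifted by 2 were called in males, so that differences of this size could be missed.

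Cish (ENSMUSG00000032578), the STAT5-induced feedback gene with both matches at its start shown above, was higher in humanized than in WT male livers in all libraries. WT males had 221, 446 and 425 normalized counts, and humanized males had 1812, 984 and 625. The lowest humanized male was above the highest WT male, a gap without overlap that 5.34% of all genes tested showed and that Onecut1 shared. The difference was 1.59 (SE 0.434, 95% interval 0.63 to 2.55, 3.01-fold), with an unadjusted limma p of 0.00408 and an adjusted p of 0.547. It was 2.59 among the libraries made by ribosomal depletion, where 1 WT male was set against 2 humanized males, and 0.52 among those made by polyA enrichment, where 2 WT males were set against 1. In females the groups overlapped, with 648, 441 and 451 in WT and 505, 1027 and 697 in humanized mice. The female difference was 0.51 (limma adjusted p = 0.825), and it was -0.13 and 1.20 in the same 2 sets of libraries. The male minus female genotype difference was 1.08 (95% interval -0.24 to 2.40, limma adjusted p = 0.642), and it turned from 2.72 with ribosomal depletion to -0.68 with polyA enrichment. Over both sexes the genotype difference was 1.05 (limma adjusted p = 0.880).

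Onecut1 (ENSMUSG00000043013) was higher in humanized than in WT livers in both sexes, with no overlap in either. WT males had 1489, 965 and 1231, and humanized males had 3114, 1933 and 1986. WT females had 1538, 1055 and 1749, and humanized females had 1803, 1926 and 1904. Every one of the 6 humanized libraries lay above every one of the 6 WT libraries. Of the 15180 genes tested, 10 showed such a gap over all 12 libraries, or 0.0659%. The difference was 0.59 over both sexes (SE 0.171, 95% interval 0.21 to 0.97, 1.50-fold), with an unadjusted limma p of 0.00597 and an adjusted p of 0.880. In males it was 0.85 (limma adjusted p = 0.547), and it was 0.72 and 0.86 among the libraries made by ribosomal depletion and by polyA enrichment. In females, where 7.35% of all genes showed such a gap, it was 0.33 (95% interval -0.19 to 0.86, limma adjusted p = 0.795). Over both sexes it lay between 0.49 and 0.68 under all alternatives run, and Onecut1 was called in none of them.

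Bcl6 (ENSMUSG00000022508), the repressor gene with 4 STAT5-type matches in its 2 windows, varied most within groups after Cux2. WT males had 2820, 1326 and 6832, and humanized males had 616, 924 and 3108. WT females had 1070, 3044 and 4015, and humanized females had 4003, 943 and 1782. The groups overlapped throughout, and the 2 lowest libraries were the first and second humanized males. The male minus female difference was -0.16 over both genotypes (95% interval -1.36 to 1.04, limma adjusted p = 0.889). It was 0.32 in WT and -0.64 in humanized mice. All of these changed direction with the preparation. With ribosomal depletion the sex difference was -0.21 over both genotypes, 1.40 in WT and -1.82 in humanized mice. With polyA enrichment it was 0.75, -0.22 and 1.72. The value of 1.40 set WT male 1 against WT female 1 alone, and that of 1.72 humanized male 3 against humanized female 2. The genotype difference in males was -1.09 (95% interval -2.84 to 0.66, limma adjusted p = 0.788). It was -1.90 among the libraries made by ribosomal depletion and 0.046 among those made by polyA enrichment. The male minus female genotype difference was -0.96 (limma adjusted p = 0.811) and turned to 1.94 in the polyA libraries.

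Cux2 itself was higher in 2 of 3 humanized male livers than in every WT male liver. These 2, at 1367 and 295, were the humanized males prepared by ribosomal depletion, and the third, at 32.6, was prepared by polyA enrichment and lay within the range of the WT males. The genotype difference in males was 2.61 (95% interval 0.34 to 4.89, limma adjusted p = 0.677). It was 4.93 among the libraries made by ribosomal depletion (limma adjusted p = 0.0893) and -0.25 among those made by polyA enrichment, so that the difference did not hold within both preparations. The same 2 libraries were the lowest for Bcl6 and the 2 highest males for Cish. Among the humanized males the preparation and the animal cannot be told apart. WT male 1, also made by ribosomal depletion, had 19.8 for Cux2, 221 for Cish and 2820 for Bcl6. The male minus female genotype difference was 2.65 (95% interval -0.48 to 5.78, limma adjusted p = 0.641), and it was 4.88 with ribosomal depletion and -0.68 with polyA enrichment.

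**Figure D3:**
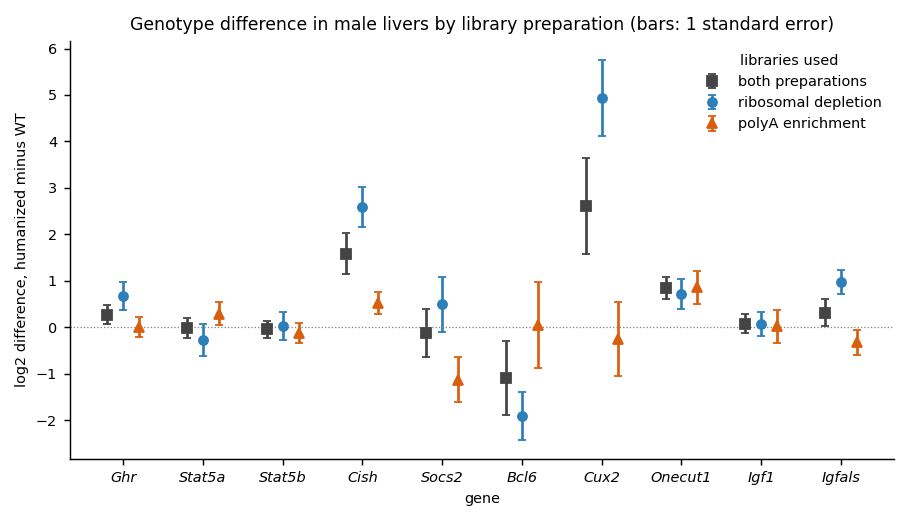
Humanized minus WT log2 difference in male livers for the 10 genes, from all libraries and from each preparation alone; bars are 1 standard error. The Cux2 difference is 4.93 with ribosomal depletion and -0.25 with polyA enrichment, while Onecut1 stands at 0.72 and 0.86.

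Lists of other genes of the pathway, written down with earlier results of these data known, were read beside the members. Of 20 male-biased STAT5 targets all 20 were called higher in males over both genotypes (4.12% of all genes were), with a median of 5.39 on the log2 scale against 0.01 for all genes tested. Among them was Hsd3b5, a steroid dehydrogenase gene, at 10869 ± 4971 in WT and 9437 ± 3141 in humanized males and at 21.1 ± 9.55 and 13.6 ± 7.18 in the corresponding females. Of 22 female-biased genes 21 were called lower in males (5.47% of all genes were), with a median of -6.72. Cyp3a16, a cytochrome P450 gene of this list, was listed at 18214 ± 7890 in WT and 24706 ± 12292 in humanized females and at 0.650 ± 0.563 and 8.51 ± 7.84 in the corresponding males.

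The male libraries separated by genotype in the mean of each list, which they did not for Cux2. Most single genes of each list overlapped between the male genotypes. Of the 22 female-biased genes, 17 were higher in humanized males and 5 lower, and of the 20 male-biased genes 19 were lower and 1 higher. The mean log2 value over the 22 female-biased genes was 5.46, 5.62 and 6.10 in WT males and 9.12, 6.96 and 7.53 in humanized males, so that all humanized males lay above all WT males. Over the 20 male-biased genes it was 15.32, 15.23 and 15.00 in WT males and 12.99, 14.44 and 13.59 in humanized males, which lay below. The third humanized male had low Cux2 but stood apart from the WT males in the mean of both lists. In females the female-biased mean ran from 12.54 to 13.97, and Cux2 spanned less than 1 unit on the log2 scale. Between the genotypes in males 1 of the 22 female-biased genes was called, against 0.0329% of all genes, the transporter gene Slc22a27, higher in humanized males at 400 ± 202 against 13.2 ± 14.3. Their median difference was 1.61. Of the male-biased genes 1 of 20 was called in this comparison, Moxd1, lower in humanized males at 3.90 ± 2.57 against 8419 ± 6626, and the median was -1.02. Over all genes tested the median genotype difference in males was -0.01.

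**Figure D4:**
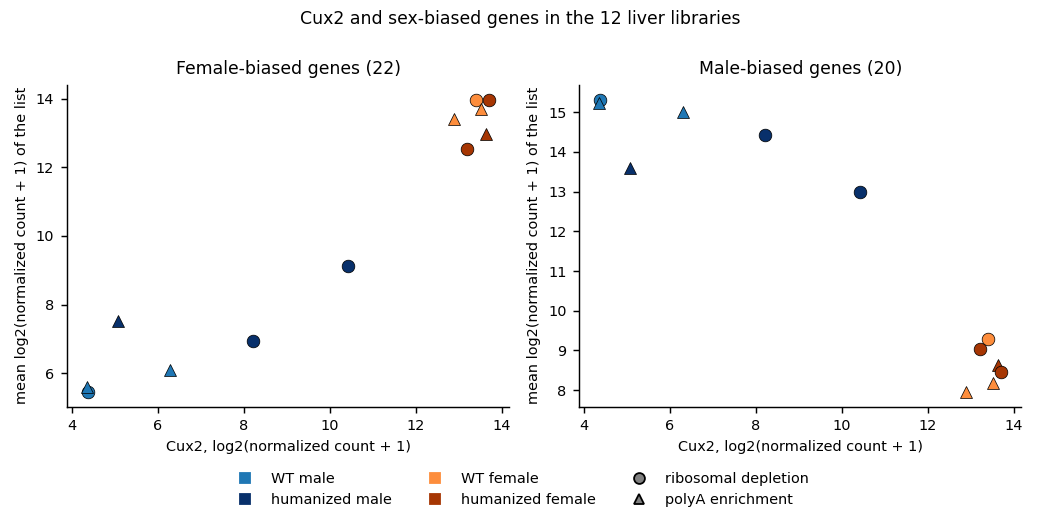
Mean log2(normalized count + 1) of 22 female-biased and 20 male-biased liver genes against Cux2 in the 12 liver libraries; colours are groups and shapes preparations. Humanized males lie above WT males on the female-biased list, at 9.12, 6.96 and 7.53, and below them on the male-biased list.

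Of 15 other growth hormone signalling components, 3 were called lower in males over both genotypes and 0 higher, against 5.47% and 4.12% of all genes, a background that also holds for the next 3 lists. Prlr, the prolactin receptor gene, averaged 6318 ± 1636 among WT males, 13613 ± 3862 in humanized males, 21640 ± 2663 in WT females and 18709 ± 1818 in humanized females. The others were Lepr, the leptin receptor gene, with a difference of -3.81 (limma adjusted p = 0.00582), and Grb10, an adaptor that inhibits insulin and IGF receptor signalling, with -1.92 (limma adjusted p = 0.0149). Of 14 IGF axis genes that passed the filter, 1 was called lower and 0 higher: Igfbp1, a secreted IGF binding protein gene that insulin represses, with -2.21 (limma adjusted p = 0.0202). Of 20 liver transcription factor genes 4 were called lower in males and 0 higher. These were Trim24 (-1.30), the oestrogen receptor gene Esr1 (-1.09), Tox (-2.39) and Foxo1 (-0.53). Trim24 and Prlr stand on the female-biased list as well. Of 11 lipid genes known to rise when liver loses growth hormone signalling, 2 were called lower in males, Lpin1 (-1.52) and Vldlr (-1.83), and 0 higher. Within WT mice 2 others, the fatty acid synthesis genes Acaca (-1.93) and Fasn (-1.75), were called lower in males, against 4.62% of all genes called in either direction. None of these 4 lists held a gene called between the genotypes in either sex.

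Relations among the members were examined within each sex over 6 liver libraries, with 6 pairs chosen after their values were seen and 12 relations in all. None passed Benjamini-Hochberg adjustment. Cish ran against Bcl6 in females (Pearson r -0.88, exact permutation p = 0.0278, adjusted p = 0.167, Spearman rho -0.77, exact p = 0.103, adjusted p = 0.247), and r was -0.87 over the 4 libraries left when the 2 farthest in Cish were dropped. In males r was -0.71 (exact permutation p = 0.110, adjusted p = 0.219), rho was -0.71 (exact p = 0.136, adjusted p = 0.272), and r was -0.63 over the 4 left. Igf1 ran with Igfals in females (r 0.88, exact permutation p = 0.0181, adjusted p = 0.167, rho 0.83, exact p = 0.0583, adjusted p = 0.233), with r 0.49 over the 4 left. Dropping the 2 libraries farthest in the first gene narrows its range, so a lower r cannot tell whether a relation rested on them. In males r for this pair was 0.23 (exact permutation p = 0.683, adjusted p = 0.745), rho was 0.09 (exact p = 0.919, adjusted p = 0.919) and r was 0.21 over the 4 left. Socs2 ran against Bcl6 in males (r -0.76, exact permutation p = 0.075, adjusted p = 0.197, rho -0.89, exact p = 0.0333, adjusted p = 0.2), with r -0.94 over the 4 left. In females r for that pair was -0.48 (exact permutation p = 0.326, adjusted p = 0.435), rho was -0.37 (exact p = 0.497, adjusted p = 0.597) and r was 0.11 over the 4 left. Ghr ran against Igf1 in females (r -0.78, exact permutation p = 0.0569, adjusted p = 0.197, rho -0.89, exact p = 0.0333, adjusted p = 0.2), with r -0.62 over the 4 left. In males r for Ghr and Igf1 was 0.02 (exact permutation p = 0.974, adjusted p = 0.974), rho was -0.09 (exact p = 0.919, adjusted p = 0.919) and r was 0.52 over the 4 left. Cish ran with Socs2 in females (r 0.76, exact permutation p = 0.0819, adjusted p = 0.197), with r 0.51 over the 4 left. In males r for Cish and Socs2 was 0.40 (exact permutation p = 0.425, adjusted p = 0.51). For the remaining pair, Bcl6 and Cux2, r was -0.62 in males (exact permutation p = 0.206, adjusted p = 0.352). In females r for that pair was -0.49 (exact permutation p = 0.311, adjusted p = 0.435). Within each sex both genotypes and both preparations were pooled and permuted together. These values therefore mix differences between groups with variation among libraries of a group. Each preparation holds too few libraries of a sex to give these values within it.

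In gonadal adipose tissue, normalized separately so that no level is compared with liver, 17394 genes were tested. Of the 9 members tested 1 was called between the sexes within humanized mice, against 0.115% of all genes tested, and 0 over both genotypes (1 at an unadjusted p under 0.05 by limma; 0.42% of all genes called) or in WT mice (1 at an unadjusted p under 0.05; 0.178%), where 12.5% and 10.2% of all genes passed unadjusted. The called gene was Socs2, lower in humanized males. Humanized males had 739, 626 and 798 normalized counts and humanized females 1490, 1748 and 1681. Every humanized female was above every other adipose library, and every humanized male was below; 9.57% of all genes tested lay lower in humanized males than in humanized females without overlap. The difference was -1.19 (SE 0.174, 95% interval -1.58 to -0.80, limma adjusted p = 0.0497, 2.28-fold). The call stood at the threshold, and the adjusted p ran from 0.0213 to 0.244 over the alternatives. It was lost without WT male 4 or 5, humanized male 4, 5 or 6, WT female 6, or humanized female 4, 5 or 6, one at a time, although the difference stayed between -1.27 and -1.09. Without WT female 5, the library with Ddx3y reads, it was -1.19 (limma adjusted p = 0.0213). Of markers of other cells, 5 of 5 adipose progenitor and 4 of 4 mesothelial genes were also lower in humanized males, with 0 called. The mesothelial genes summed to between 2565 and 18530 against 24755 and 54102 in humanized females. Stellate cell markers also summed lower without overlap, at 83496 to 85707 against 107368 to 153108. So did cholangiocyte (3244 to 5239 against 6632 to 10882) and lymphocyte markers (222 to 398 against 755 to 926). Epididymis markers did too at low values, 6.29 to 15.7 against 19.3 to 36.3. Adipose progenitor sums overlapped, at 102556 to 163766 against 107804 to 158793, as did those of the other marker lists. The part of these cells in the Socs2 difference was not tested.

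In WT adipose tissue Socs2 did not separate the sexes. WT males had 977 and 945, and WT females had 814, 1274 and 994. Over both genotypes the male minus female difference was -0.63 (limma adjusted p = 0.0885), and it was called without WT female 4 (-0.71, limma adjusted p = 0.0457). Humanized males lay below WT males without overlap, a genotype difference of -0.42 (limma adjusted p = 0.610). Humanized females lay above WT females without overlap, a difference of 0.69 (95% interval 0.30 to 1.08), for which limma gave an unadjusted p of 0.00278 and an adjusted p of 0.933. Without WT female 5 it was 0.86 (limma adjusted p = 0.142). Such gaps were shown by 12.1% of all genes tested in that direction in males and by 5.54% in females.

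**Figure D5:**
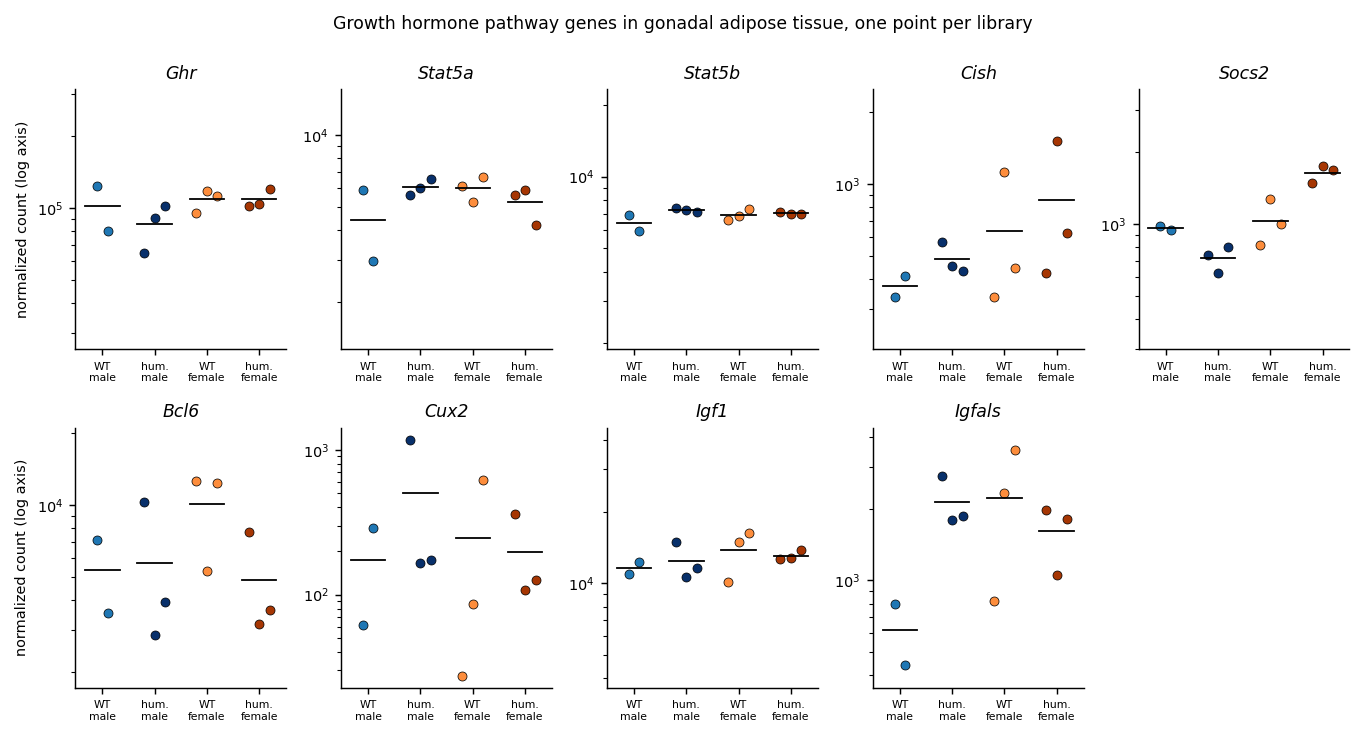
Normalized counts (log axis) of the 9 genes that passed the filter in each of the 11 adipose libraries by group; bars are group means (n = 3, WT males n = 2). Socs2 lies between 626 and 798 in humanized males and between 1490 and 1748 in humanized females.

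Igfals in adipose tissue was lowest in WT males. They had 794 and 443 normalized counts, and humanized males had 2729, 1794 and 1871. WT females had 824, 2336 and 3511, and humanized females had 1968, 1054 and 1805. Both WT males lay below every other adipose library. None of the genotype comparisons called a member in adipose tissue, where the background was 0.0172% of genes in each sex and 0.023% with the sexes joined. At an unadjusted p under 0.05 limma gave 1 member in males, Igfals, against 8.41% of all genes, 1 in females, Socs2, against 5.25%, and 0 over both sexes, against 7.11%. The difference between the sexes in the genotype effect was called for 0 members and for 0 genes in all, and 2 members, Socs2 and Igfals, had an unadjusted p under 0.05 by limma, against 6.8% of all genes. The Igfals genotype difference in males was 1.82 (95% interval 0.58 to 3.05), with a gap in this direction in 11.2% of all genes tested, and limma gave an unadjusted p of 0.00853 and an adjusted p of 0.411. Its sex difference in WT mice was -1.67 (limma adjusted p = 0.322; 12.4% of genes lay lower in males without overlap), and the genotype difference differed between the sexes by 2.10 (95% interval 0.44 to 3.76, limma adjusted p = 0.674). One of the 2 WT males, replicate 5, held liver RNA markers far above the other libraries: its 5 hepatocyte markers summed to 179433, against 741 to 15868 elsewhere. That library had the lower of the 2 Igfals values. Other markers moved with the same comparison. All 4 erythroid markers were lower in humanized males, summing to between 78135 and 239708 against 270934 and 1395890 in WT males. All 5 adipose progenitor markers were higher, 3 of them without overlap, with 0 called in either list. Adipocyte markers summed lower in humanized males without overlap, at 1323150 to 1749550 against 1898590 to 2039990. Endothelial sums were also lower without overlap (44226.5 to 48365 against 52591 to 54322.4). Stellate cell sums were higher without overlap (83496 to 85707 against 68511 to 79625). The part of these cells in the Igfals difference was not tested.

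The other members did not separate the adipose groups by the test. Ghr ran from 64909 in a humanized male to 123787 in a WT male, with a male minus female difference of -0.24 (95% interval -0.60 to 0.12). Cish was above 1000 in the fifth replicate of both female groups, at 1123 in WT and 1517 in humanized mice, and between 335 and 627 in the other libraries, with a sex difference of -0.59 (95% interval -1.45 to 0.28). Bcl6 had 12703, 5288 and 12361 in WT females and 7760, 3193 and 3650 in humanized females, a genotype difference of -1.07 (95% interval -2.31 to 0.18, limma adjusted p = 0.933). Stat5a was 5900 and 2961 in WT males and between 4207 and 6687 elsewhere, and its genotype difference in males of 0.53 was 0.04 without WT male 5. Stat5b ran from 5941 to 7392 and Igf1 from 10097 to 16270. Cux2 ran from 27.5 to 1177 between a WT female and a humanized male, and it did not separate the sexes in this tissue (0.57, 95% interval -1.42 to 2.56). Humanized male 4, which held the highest Cux2, also had the lowest level of the adipocyte gene Adipoq, at 116720 against 209550 to 325520 in the other libraries. Onecut1 was listed at 0 in 5 of the 11 libraries and reached its highest value, 19.1, in WT male 5, the library with the high hepatocyte markers. In adipose tissue the part that liver RNA or fewer adipocytes had in these values was not tested.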

How the data were processed

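Liver and gonadal adipose mRNA of 23 libraries were analysed; small RNA tables were not used here. The values are normalized counts, a signal that the authors deposited per gene after DESeq normalization per the file headers; the submitters' processing notes name mm9, STAR, Salmon, DESeq2 and limma without versions or steps. Of values under 5, 93.9% in liver were distinct within their library, so reads were not recovered and depth is unknown. Here limma 3.58.1 (R 4.3.3, trended empirical Bayes) was run on log2(value + 1) of genes with a mean of at least 10 over 4 groups, with preparation as a term in liver. P-values were adjusted (Benjamini-Hochberg) over all genes tested and called under 0.05, in 7 comparisons per tissue. Fold changes are on this scale and understate low genes. Members and lists were chosen with earlier results of these data known. Named genes were all members, up to 4 called genes per list and comparison by smallest p, and the 3 genes most like a member. Simulated data with 200 changed genes checked the fit. Motifs were searched with Python 3.11.15. Alternatives are given at the end.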

Additional observations from a re-analysis of the deposited data

Results flagged for a closer look

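In adipose tissue the genotype difference of Socs2 ran in opposite directions in the sexes. Every humanized male lay below every WT male, and every humanized female lay above every WT female, a pattern shown by 87 of 17394 genes, or 0.5%. The difference between the 2 genotype differences was tested with limma and came to -1.12 on the log2 scale (95% interval -1.70 to -0.53, unadjusted p = 0.00179, adjusted p = 0.597), and no gene passed that test (1183 at an unadjusted p under 0.05). It lay between -1.28 and -0.96 when 1 library at a time was left out. WT males had 2 libraries, and the direction rests on them.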

How the results depend on the processing

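Of 39 single-gene differences chosen for this check, 33 kept their direction under every alternative run and 6 turned. With polyA libraries alone, the genotype difference in males became 0.046 for Bcl6 and -0.25 for Cux2, and the genotype by sex difference became 1.94 for Bcl6, -0.68 for Cux2 and -0.68 for Cish. With ribosomal depletion libraries alone, the female genotype difference of Cish became -0.13. The 39 did not cover every difference given above, and others also turned between the preparations. These include the sex differences of Bcl6, that of Ghr within WT mice, and the Igfals genotype difference in males. For Stat5a the sex difference over both genotypes was -0.14 with ribosomal depletion and 0.02 with polyA enrichment. Its genotype difference in males was -0.27 and 0.30. The number of members called between the sexes in humanized livers was 0, not 1, with either preparation alone; these fits hold 6 libraries. In humanized adipose tissue it was 0 with a pseudocount of 10, no filter on low values, or robust empirical Bayes. Leaving out 1 library gave 1 to 2 members called for sex in liver over both genotypes, 0 to 1 in humanized liver, 0 to 1 in adipose tissue over both genotypes and 0 to 1 in humanized adipose tissue. With 1 WT male left in adipose tissue, that library is assumed to vary like the other groups. Groups share replicate numbers, which the labels do not tie to a litter, batch or day. In liver, with preparation removed, residuals of same-numbered libraries correlated by -0.07 on average (-0.46 to 0.24), against 0.03 for different numbers. In adipose tissue the average was 0.15 (-0.10 to 0.40, over 0.1 in 9 of 15 pairs), against -0.07 for different numbers. Not every pair was over 0.1, and the numbers were not taken as pairing. With the replicate block, the members called for sex in humanized mice were 0 in liver and 0 in adipose tissue. The cause of these changes was not tested. Depth is unknown, and values near the filter are the least precise.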
